A study of Mus musculus with 27 samples.

Results

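The genes described here encode the replicative helicase and the factors that license origins of DNA replication. They are Mcm2, Mcm3, Mcm4, Mcm5, Mcm6, Mcm7, Mcm10, Cdt1, Cdc6 and Gmnn. The 10 genes were chosen by symbol, and all probesets annotated to them were taken, which gave 1 probeset per gene among 35556 on the array. All 10 passed the filter on low values, which asked for a gene symbol and for a log2 value averaging 6 or more over the arrays. It left 16283 probesets to test.

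Before S phase the origin recognition complex, CDC6 and CDT1 load the ring of MCM2 to MCM7 onto DNA as an inactive double hexamer, a step called licensing. Geminin, the product of Gmnn, binds CDT1 and prevents loading once replication has begun, and MCM10 is needed when the loaded ring is turned into a moving helicase. Most of these genes are known targets of E2F transcription factors, and ES cells, which cycle fast with a short gap before S phase, hold abundant MCM protein.

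The study treated undifferentiated mouse embryonic stem (ES) cells with small interfering RNA (siRNA) and measured total RNA on 27 Affymetrix arrays. The female line PGK12.1 came from blastocysts of a 129 female and a (129 X PGK)F1 male, WD44 is a male line of BL6 origin, and E14 is a male Cast/BL6 hybrid line. All lines grew with leukemia inhibitory factor on mouse embryonic fibroblast (MEF) feeders, which were depleted on gelatin before the RNAi. PGK12.1 had 3 MOF RNAi arrays with 3 controls (experiments 1 to 3). A further 5 PGK12.1 controls (experiments A to E) went with 3 arrays of MSL1 RNAi, 3 of NSL1 RNAi and 2 with siRNA to both MOF and MSL1, called double-target here. WD44 and E14 had 2 MOF RNAi and 2 control arrays each. MOF, encoded by Kat8, is a histone acetyltransferase shared by the MSL and NSL complexes, and MSL1 holds the MSL complex together. What NSL1 names is ambiguous, since Kansl1 and the kinetochore gene Nsl1 both carry that name, and it is used here as a label only. Every control received a negative control siRNA (Invitrogen Stealth or Silencer). Cells received 100 pmol of siRNA for 48 h, with 50 pmol of Msl1 siRNA in addition in the double-target cells. In PGK12.1 experiments 1 and 2 this was followed by 400 pmol for another 24 h. Each line stands for itself only, since sex and strain differ together between lines.

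Several facts of the series touch the values below. Array medians stepped between 6 sets of arrays, from 6.22 to 6.30 in PGK12.1 experiments 1 and 2 up to 7.89 to 7.96 in WD44, so levels are compared only within an experiment and no order of lines is read from them. After MOF RNAi the targeted gene Kat8 fell by 1.22 (log2) in PGK12.1, by 0.84 in WD44 and by 0.68 in E14. It fell by 0.87 in the double-target cells (limma adjusted p between 5.75e-08 and 0.00044 in the 4 comparisons). Msl1 fell by 0.97 after MSL1 RNAi (adjusted p = 4.59e-06) and by 0.46 in the double-target cells (adjusted p = 0.00506). Under the label NSL1, the Kansl1 probeset 10391990 fell by 0.24 (adjusted p = 0.000874), the Kansl1 probeset 10392010 rose by 0.50 (adjusted p = 0.00648) and Nsl1 stood at 0.16 (adjusted p = 0.0502). The 8 ES cell markers had mean log2 values between 10.4 (Klf4) and 13.2 (Dppa5a). In bulk RNA, fewer cells in a phase of the cycle and less RNA per cell cannot be told apart.

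Few licensing genes were called. Of the 10 probesets, 0 were called after MOF RNAi in PGK12.1 (where 23.4% of all probesets tested were), 0 after MSL1 RNAi (0.184%) and 0 in the double-target cells (6.44%), so that the count after MSL1 RNAi carries little information. Mcm10 and Mcm2 fell under the label NSL1, where 39.8% of all probesets tested were called. Mcm5 fell after MOF RNAi in WD44 (12.4%), and Cdt1 rose after MOF RNAi in E14 (8.33%). Between WD44 and E14 the MOF responses of the 10 genes differed by a median of -0.17, against -0.02 over all probesets tested. Other lists of replication and cell cycle genes, given below, leaned the same way. Of the 10 licensing genes, 1 was called, Cdt1, where 1.39% of all probesets tested were. A call means an adjusted p (Benjamini-Hochberg) under 0.05 over all 16283 probesets, in a limma fit with the experiment as a block, so that each knockdown array was set against the control array of its own experiment. These changes ran from 85.3% of the control level for Mcm5 in WD44 to 121% for Cdt1 in E14.

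**Figure D1:**
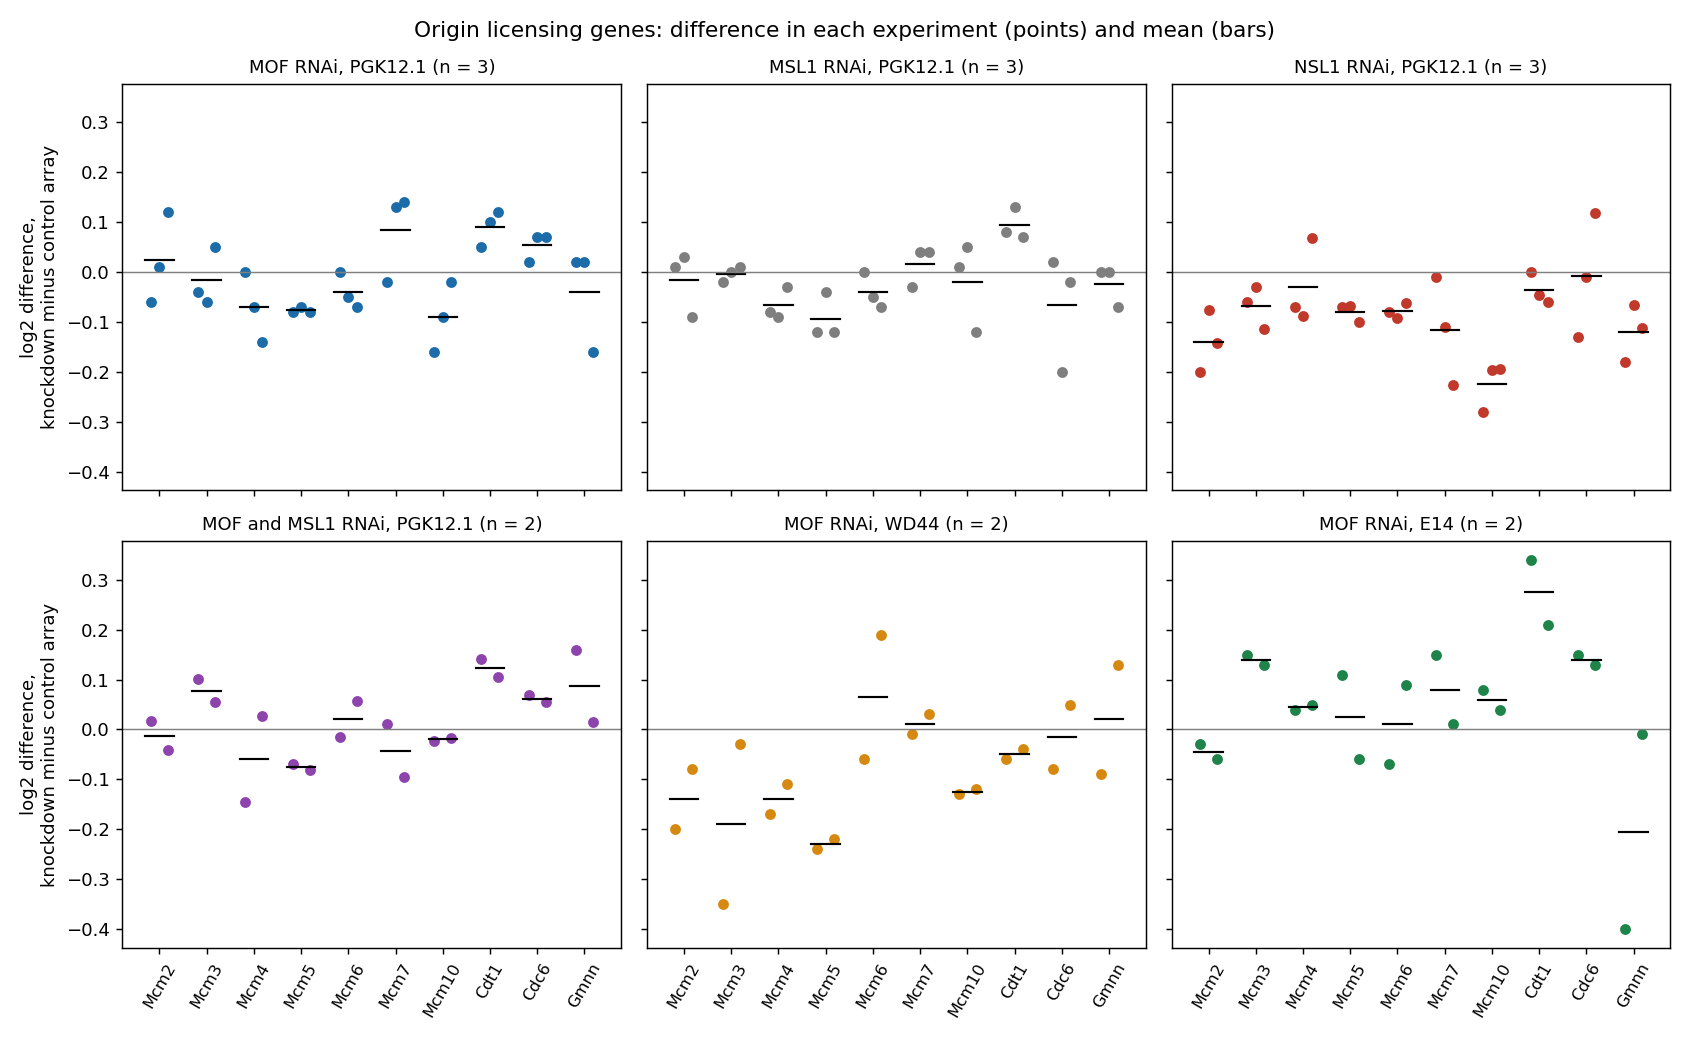
Log2 difference between the knockdown array and the control array of the same experiment (vertical axis) for the 10 licensing genes (horizontal axis), with a panel per knockdown, a point per experiment and a bar at the mean of the points. Most points lie within 0.2 of 0, and the points farthest out are Gmnn in E14 experiment 1 (-0.40), Mcm3 in WD44 experiment 1 (-0.35) and Cdt1 in E14 experiment 1 (0.34).

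After MOF RNAi in PGK12.1 the helicase subunits split around 0. The fitted log2 change was 0.02 for Mcm2, -0.02 for Mcm3, -0.07 for Mcm4, -0.08 for Mcm5, -0.04 for Mcm6 and 0.08 for Mcm7, with a median of -0.03 against 0 over all probesets tested. None of the 10 genes was called (limma, 0 of 10 at an adjusted p under 0.05, and also 0 of 10 at an unadjusted p under 0.05), where 23.4% of all probesets tested were. The count was also 0 without the block, in which 7.68% of probesets were called. The 95% confidence intervals of the 10 changes lay between -0.19 and 0.19, so that larger changes of these probesets are outside the intervals. The median size of the change was 0.06 over the 10 members and 0.10 over all probesets tested. The same pair of values was 0.10 and 0.11 in WD44 and 0.07 and 0.09 in E14.

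Single members kept their sign across the 3 PGK12.1 experiments without being called. Mcm5, the subunit that forms the gate of the ring with MCM2, stood at -0.08, -0.07 and -0.08. Cdt1, the loading factor, stood at 0.05, 0.10 and 0.12 (fitted change 0.09, SE 0.04, adjusted p = 0.155). Mcm10 stood at -0.16, -0.09 and -0.02. Gmnn, the inhibitor of loading, stood at 0.02 in both experiments with 2 rounds of RNAi and at -0.16 in experiment 3, which had a single round. Cdc6, the ATPase that joins the origin recognition complex, stood at 0.02, 0.07 and 0.07. In the same arrays, where 23.4% of all probesets tested were called, 2 of 8 ES cell markers fell, Nanog (-0.14) and Tdgf1 (-0.17). The other ES cell markers were not called and stood between -0.15 (Esrrb) and 0.08 (Dppa5a). Of 5 trophectoderm markers tested, 1 was called, the factor Gata3, which rose by 0.28. Of 5 fibroblast markers tested, 0 were called (limma, 0 also at an unadjusted p under 0.05).

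After MOF RNAi in WD44 the members leaned lower, and Mcm5 was the one called. Of the 10 genes, 7 had a change below 0 and 3 above. The median over Mcm2 to Mcm7 was -0.14, against -0.02 over all probesets tested. The Mcm5 values were 12.48 in control 1, 12.24 in MOF RNAi 1, 12.56 in control 2 and 12.34 in MOF RNAi 2. Both knockdown arrays were below both controls. How many of all probesets tested were ordered in this way was not counted, so the order adds no support to the call. Mcm5 fell by 0.23 (SE 0.05, adjusted p = 0.0163, n = 2 pairs), to 85.3% of the control level with a 95% confidence interval of the log2 change from -0.35 to -0.11. That was 1 gene of 10, where 12.4% of all probesets tested were called and 7.98% were called lower, so the share of members is near the background. Of all probesets tested, 16.9% changed by more than Mcm5.

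The Mcm5 call rested on the block and on the spread shared with the PGK12.1 and E14 arrays. Without the block the change was the same and the adjusted p was 0.223, and with the WD44 arrays alone it was 0.219. Without experiment 1 the adjusted p was 0.197 and without experiment 2 it was 0.0874, with changes of -0.22 and -0.24.

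The other subunits varied between the 2 WD44 experiments. Mcm3 stood at -0.35 in experiment 1 and at -0.03 in experiment 2 (fitted change -0.19, SE 0.07, adjusted p = 0.0709), and it was called with each array centred on its median (-0.24, adjusted p = 0.0359) and without experiment 2 (-0.35, adjusted p = 0.0228). Mcm2 stood at -0.20 and -0.08, Mcm4 at -0.17 and -0.11, and Mcm10 at -0.13 and -0.12. Mcm6 stood at -0.06 in experiment 1 and at 0.19 in experiment 2, so that its sign differed. Mcm7 stayed near 0 (-0.01 and 0.03), Cdt1 stood at -0.06 and -0.04, Cdc6 at -0.08 and 0.05, and Gmnn at -0.09 and 0.13. At an unadjusted p under 0.05 there were 5 of 10 members, as against 4852 of the 16283 probesets.

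Markers of other cell types moved in the same WD44 arrays. Of 8 fibroblast markers, 5 passed the filter and 3 rose: Col1a1 by 0.38, Col1a2 by 0.30 and Col3a1 by 0.30, all collagen genes. The mean of the 8 markers was 7.45 and 7.60 in the controls and 7.67 and 7.63 in the MOF RNAi arrays, and its difference was 0.22 in experiment 1 and 0.03 in experiment 2. Lum, Postn and Dcn did not pass the filter, with mean log2 values of 3.93, 4.75 and 5.47 over all arrays. The highest single values were 8.62 for Dcn, 9.50 for Col1a1 and 8.54 for Col1a2. Of 6 trophectoderm markers, 5 passed the filter and the keratin gene Krt18 (0.45) and the transcription factor gene Hand1 (0.35) rose. The mean of those 6 was 9.66 and 9.60 in the controls and 9.87 and 9.88 in the MOF RNAi arrays, a difference of 0.22 and 0.27. Of 5 primitive endoderm markers tested, 1 was called, the adaptor gene Dab2, which fell by 0.33. Gata4 (0.125), Gata6 (0.125), Foxa2 (0.065) and Lama1 (0.06) stood above 0 and were not called. The part of these markers in the Mcm5 result was not tested.

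After MOF RNAi in E14 the members leaned the other way, and Cdt1 rose. Of the 10 genes, 8 had a change above 0, and the median over Mcm2 to Mcm7 was 0.04 against 0.00 over all probesets tested. The Cdt1 values were 11.36 in control 1, 11.70 in MOF RNAi 1, 11.55 in control 2 and 11.76 in MOF RNAi 2. Both knockdown arrays were above both controls, an order that was not counted over all probesets tested and adds no support to the call. Cdt1 rose by 0.28 (SE 0.05, adjusted p = 0.00743, n = 2 pairs), to 121% of the control level, with a 95% confidence interval from 0.16 to 0.39. It was 1 gene of 10, where 8.33% of all probesets tested were called and 3.60% were called higher. Of all probesets tested, 8.14% changed by more. The change was the same size without the block, where the adjusted p was 0.252, and with the E14 arrays alone it was 0.231. Without experiment 1 it was 0.21 (adjusted p = 0.236), and without experiment 2 it was 0.34 (adjusted p = 0.0365).

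Other members of the E14 comparison were not called. Cdc6 stood at 0.15 and 0.13 (fitted change 0.14, adjusted p = 0.251) and Mcm3 at 0.15 and 0.13 (0.14, adjusted p = 0.216). Gmnn stood at -0.40 in experiment 1 and at -0.01 in experiment 2 (-0.21, SE 0.08, adjusted p = 0.146). Its values were 7.77 and 7.37 in experiment 1 and 7.54 and 7.53 in experiment 2, control first, so control 2 lay between both arrays of experiment 1. Mcm2 was below 0 in both experiments (-0.03 and -0.06), Mcm4 (0.04 and 0.05) and Mcm10 (0.08 and 0.04) were above 0 in both, and Mcm5 (0.11 and -0.06) and Mcm6 (-0.07 and 0.09) changed sign. Mcm7 stood at 0.15 and 0.01. Of 8 ES cell markers, 1 was called in these arrays, Sox2, which fell by 0.21, while Pou5f1 stood at 0.19 (adjusted p = 0.0682) and the other 6 between -0.14 and 0.02. Of 5 primitive endoderm markers tested, 1 was called, the laminin chain gene Lama1, which fell by 0.37, and Gata4 stood at 0.13 (adjusted p = 0.204). Of the fibroblast markers, 0 of 5 tested were called (limma, 1 at an unadjusted p under 0.05). Their part in the Cdt1 result was not tested.

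**Figure D2:**
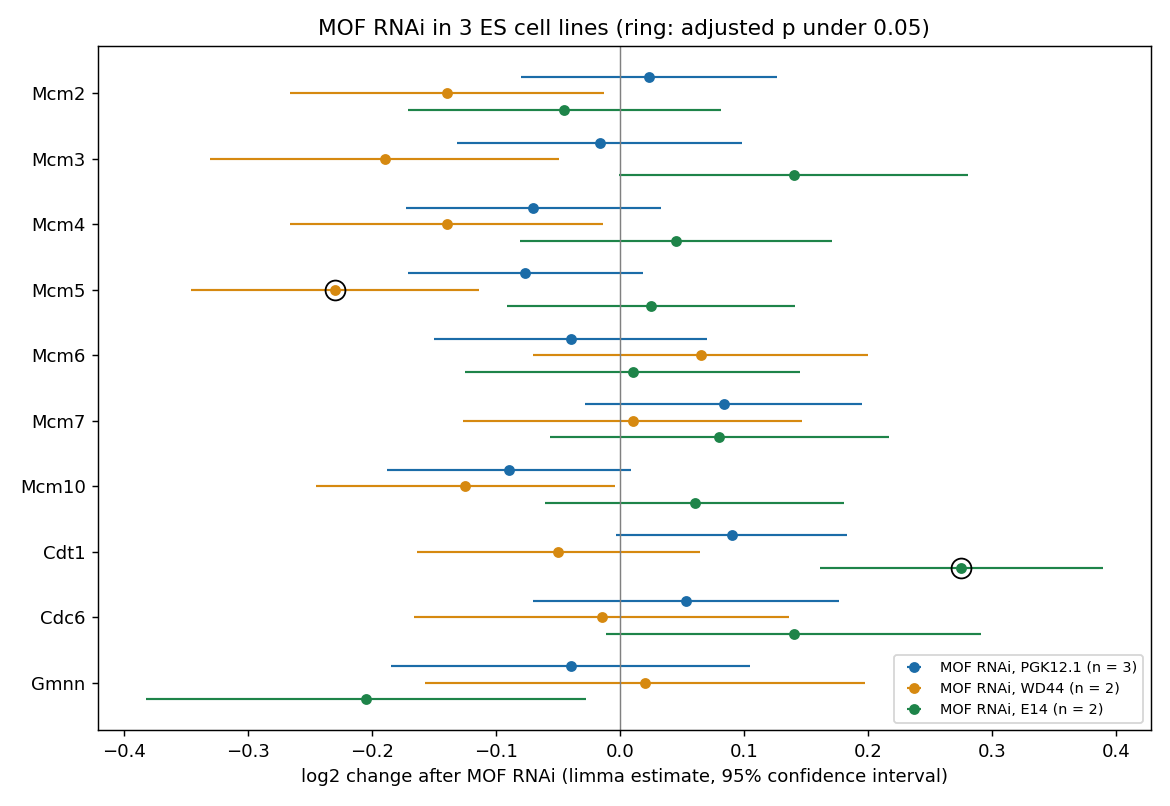
Fitted log2 change after MOF RNAi (horizontal axis) for the 10 licensing genes in PGK12.1 (3 experiments), WD44 (2) and E14 (2), with 95% confidence intervals from limma as bars and a ring around estimates called at an adjusted p under 0.05. Mcm5 in WD44 (-0.23) and Cdt1 in E14 (0.28) carry the rings, and for 8 of the 10 genes the WD44 point lies left of the E14 point.

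The lines were then compared directly, as the difference between their responses to MOF RNAi. Here the median size of the difference was larger over the members than over all probesets, a description without a test. The 10 genes were read from the same 2 pairs of arrays per line, so they are not replicates of the comparison. By experiment, the median over Mcm2 to Mcm7 was -0.185 and -0.055 in WD44 and 0.075 and 0.03 in E14. The median size of the difference between WD44 and E14 was 0.19 over the 10 genes and 0.12 over all probesets tested. The signed medians were -0.17 and -0.02, and 5 of 10 members against 2700 of 16283 probesets had an unadjusted p under 0.05. Related lists, described below, leaned the same way, so the shift was not particular to the licensing genes. Their signed medians were -0.15 for helicase activation, -0.135 for the replication fork and -0.085 for control of the G1 to S step. They were -0.075 for mitosis and -0.0675 for origin recognition genes and MCM relatives. The WD44 response was below the E14 response in 8 of the 10 licensing genes, and 1 was called, where 1.39% of all probesets tested were. Cdt1 differed by -0.33 (SE 0.08, adjusted p = 0.0490, 95% confidence interval from -0.49 to -0.16), with -0.05 in WD44 and 0.28 in E14. Mcm3 differed by -0.33 (SE 0.09, adjusted p = 0.0941), Mcm5 by -0.26 (SE 0.08, adjusted p = 0.114) and Gmnn by 0.23 (SE 0.12, adjusted p = 0.355). The Cdt1 difference lay on the edge of the threshold. It was -0.33 with an adjusted p of 0.744 without the block, 0.133 without the filter on low values, 0.201 with the WD44 and E14 arrays alone and between 0.0628 and 0.374 when any array was left out. Between the same lines 1 of 5 trophectoderm markers tested, Krt18 (0.65), and 1 of 5 primitive endoderm markers tested, Lama1 (0.43), were called. Of the fibroblast markers, 0 of 5 were called (limma, 2 at an unadjusted p under 0.05). Their part in the Cdt1 difference was not tested.

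No licensing gene was called between WD44 and PGK12.1 (limma, 0 of 10 at an adjusted p under 0.05, where 2.21% of all probesets were) or between E14 and PGK12.1 (0 of 10, background 2.50%). The median size of the difference was 0.09 over the members and 0.11 over all probesets for WD44 against PGK12.1, and 0.11 and 0.10 for E14 against PGK12.1. At an unadjusted p under 0.05 there was 1 member in each. In the former it was Mcm5 (-0.15, SE 0.07, adjusted p = 0.264) and in the latter Cdt1 (0.19, SE 0.07, adjusted p = 0.170). Both of these comparisons reuse the PGK12.1 MOF experiments, and the WD44 and E14 arrays are those of the comparison above. The 95% confidence intervals of the 10 differences ran from -0.36 to 0.29 for WD44 against PGK12.1 and from -0.39 to 0.34 for E14 against PGK12.1.

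The promoter windows of Mcm5 and Cdt1 are shown for the E2F words they hold, since these were the genes called after MOF RNAi. Promoters were taken from RefSeq (GRCm38.p6) as 250 bases before to 50 after the start of transcription, and 8 of the 10 genes matched, with 2 windows for Mcm7. Mcm4 and Gmnn had no entry. The E2F consensus was searched on both strands as TTTCCCGC, TTTCGCGC, TTTGCCGC and TTTGGCGC, and the shorter core as the same 4 words without their first T, so that every consensus match contains a core match. Mcm5 lies on chr8:75109468-75128439 and Cdt1 on chr8:122568015-122573130. The stretch of Mcm5 ends at the base before the start site of the listed promoter (chr8:75109319-75109508, plus strand). That of Cdt1 runs from 18 to 47 bases after the start site (chr8:122568033-122568062, plus strand). Capitals mark E2F words, CCAAT boxes and GC boxes.
Mcm5: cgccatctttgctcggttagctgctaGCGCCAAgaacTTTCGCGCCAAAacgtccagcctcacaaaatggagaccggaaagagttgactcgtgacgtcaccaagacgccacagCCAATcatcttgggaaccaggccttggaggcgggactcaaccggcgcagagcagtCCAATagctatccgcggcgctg
Cdt1: GCGGGAActaccttTTTGGCGCcatggcgc
In Mcm5 a pair of overlapping consensus words starts at -153 and -149 (bases from the start site), a core word on its own starts at -164, and CCAAT boxes start at -77 and -22. In Cdt1 a core word starts 18 bases and a consensus word 32 bases after the start site. An E2F consensus word was in the windows of 6 of the 8 genes (Mcm3, Mcm5, Mcm6, Mcm7, Cdt1 and Cdc6) and in 2.265% of all 32851 promoters. Core words were in the same 6 genes and in 9.574% of promoters. Of the 6 genes with the consensus, Mcm5 was called in WD44 and Cdt1 in E14, so the word is shared by genes that were called and genes that were not.

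**Figure D3:**
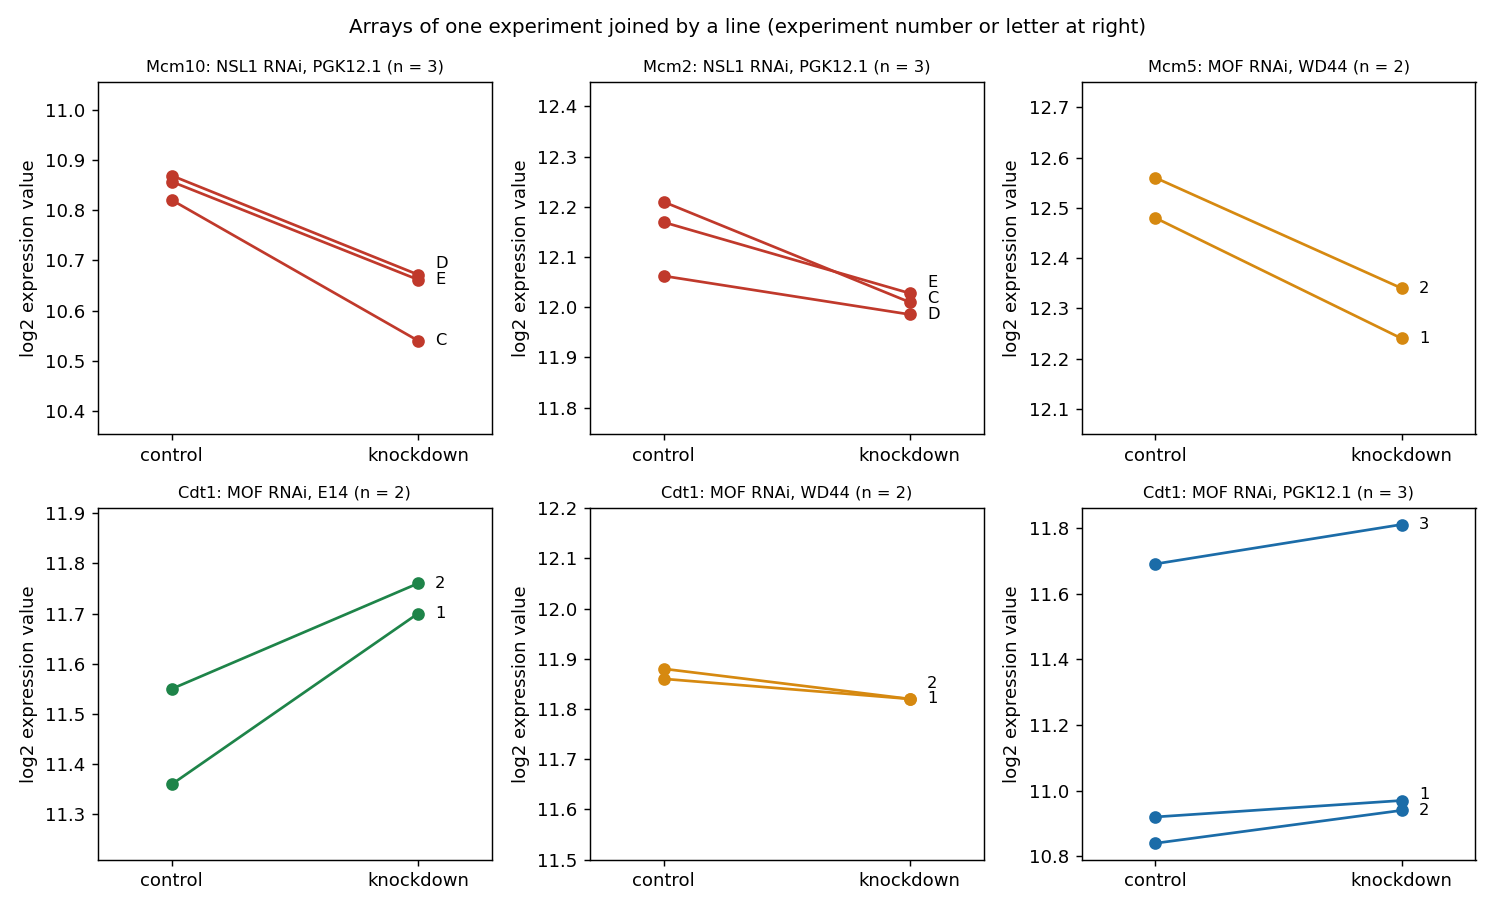
Deposited log2 expression values of the control array and the knockdown array of each experiment, joined by a line, for the member and comparison named above each panel. Mcm10 and Mcm2 are lower in all 3 NSL1 experiments, Mcm5 is lower in both WD44 experiments, and Cdt1 is higher in both E14 and all 3 PGK12.1 MOF experiments and 0.06 and 0.04 lower in WD44.

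Under the label NSL1 in PGK12.1 every licensing gene had a fitted change below 0, from -0.21 (Mcm10) to -0.02 (Cdc6), and Mcm10 and Mcm2 were called. All these genes were read from the same 3 pairs of arrays, so the shared sign is not a set of separate observations. The Mcm10 values were 10.82 in control C and 10.54 in NSL1 C, 10.87 in control D and 10.67 in NSL1 D, and 10.86 in control E and 10.66 in NSL1 E. Each of the 3 knockdown arrays was below the control array of its own experiment. Mcm10 fell by 0.21 (SE 0.04, adjusted p = 0.00155, n = 3 pairs), to 86.5% of the control level, with a 95% confidence interval from -0.30 to -0.11. Mcm10 was called in all 13 alternative settings run for it, with changes from -0.24 to -0.16.

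The Mcm2 values were 12.21 in control C and 12.01 in NSL1 C, 12.06 in control D and 11.99 in NSL1 D, and 12.17 in control E and 12.03 in NSL1 E. Each NSL1 array was below the control array of its own experiment. Mcm2, a subunit that also binds histones at the fork, fell by 0.13 (SE 0.05, adjusted p = 0.0388), to 91.4% of the control level. It was called in 4 of 13 alternative settings. Without the block the change was -0.16 (adjusted p = 0.0115), and without any 1 array it lay between -0.15 and -0.10 with an adjusted p of at least 0.0552.

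These were 2 of 10 members, where 39.8% of all probesets tested were called and 21.4% were called lower, so the members' share was not above the background. Mcm7 stood at -0.01, -0.11 and -0.23 in experiments C, D and E (fitted change -0.11, SE 0.05, adjusted p = 0.0893). Like Mcm2, Mcm7 was called in 4 of 13 alternative settings, and it lay between -0.17 and -0.07 when any 1 array was left out. Mcm5 stood at -0.07, -0.07 and -0.10, and Mcm6 at -0.08, -0.09 and -0.06. Mcm3 was below 0 in all 3 (-0.06, -0.03 and -0.11). Mcm4 (-0.07, -0.09 and 0.07) and Cdc6 (-0.13, -0.01 and 0.12) were not of a single sign. Gmnn stood at -0.18, -0.07 and -0.11 (fitted change -0.11, SE 0.07, adjusted p = 0.187). The median over Mcm2 to Mcm7 was -0.07 against -0.01 over all probesets tested. In the same arrays the fibroblast markers Pdgfrb (-0.34) and Thy1 (-0.23) fell, 2 of 5 tested, and the mean of the 8 differed by 0.03, -0.02 and -0.07 in experiments C, D and E. Of 8 ES cell markers, 1 was called, Tdgf1, which fell by 0.19, and the others stood between -0.10 (Pou5f1) and 0.13 (Klf4). Of 5 trophectoderm markers tested, Gata3 rose by 0.33 and Krt18 fell by 0.25. Cdx2 (-0.07), Krt8 (-0.24) and Hand1 (-0.07) stood below 0 and were not called. Of 5 primitive endoderm markers tested, Gata6 (0.37) and Dab2 (0.45) rose. Gata4 (-0.02), Foxa2 (-0.02) and Lama1 (0.08) were not called. The part of all these markers in the Mcm10 and Mcm2 results was not tested.

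The windows of Mcm10 and Mcm2, the genes called under the label NSL1, are shown because they are the 2 of 8 that held none of the E2F words. Mcm10 lies on chr2:4990724-5012791 and Mcm2 on chr6:88883474-88898780. Both stretches end at the base before the start site (Mcm10 at chr2:5012792-5012921, minus strand, Mcm2 at chr6:88898781-88898970, minus strand). Capitals mark CCAAT boxes (CCAAT on either strand) and GC boxes (GGGCGG on either strand).
Mcm10: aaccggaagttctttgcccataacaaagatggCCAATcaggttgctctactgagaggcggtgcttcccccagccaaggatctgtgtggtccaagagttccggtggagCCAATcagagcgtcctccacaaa
Mcm2: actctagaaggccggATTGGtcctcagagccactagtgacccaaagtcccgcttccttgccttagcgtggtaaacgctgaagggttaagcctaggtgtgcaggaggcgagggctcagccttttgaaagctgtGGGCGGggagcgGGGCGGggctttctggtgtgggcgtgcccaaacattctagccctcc
In Mcm10 the CCAAT boxes start at -98 and -23, and another starts 31 bases after the start site. In Mcm2 a CCAAT box on the other strand starts at -175 and GC boxes start at -58 and -46. CCAAT boxes were in 37.41% and GC boxes in 35.66% of all 32851 promoters, and each was in 6 of the 8 genes. That the E2F words are missing says only that these letters are not in these windows.

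After MSL1 RNAi the licensing genes lay close to 0. None was called (limma, 0 of 10 at an adjusted p under 0.05 and 1 of 10 at an unadjusted p under 0.05, background 0.184%). That 1 was Mcm5, at -0.12, -0.04 and -0.12 in experiments A, B and C (fitted change -0.10, SE 0.04, adjusted p = 0.478). Cdt1 was above 0 in all 3 experiments (0.08, 0.13 and 0.07, fitted change 0.09, adjusted p = 0.557). Gmnn was listed at 7.70 in 5 of the 7 arrays of experiments A to C, and 7.67% of all probesets had at least 5 of these 7 arrays at a single value, so differences of 0 for Gmnn there carry little information.

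In the double-target cells no member was called either (limma, 0 of 10 at an adjusted p under 0.05 and 1 of 10 at an unadjusted p under 0.05, background 6.44%). Cdt1 values were 11.83 in control D and 11.97 in the knockdown, and 11.89 in control E and 11.99 in the knockdown. The knockdown arrays were above both controls (fitted change 0.14, SE 0.05, adjusted p = 0.135), an order that was not counted over all probesets tested. Without the block the Cdt1 change was 0.28 with an adjusted p of 0.0402. That fit takes controls A to C, from another set of arrays, as controls too, and the median of all probesets was -0.10 in it. Mcm5 stood at -0.07 and -0.08, Mcm3 at 0.10 and 0.05, and Mcm10 at -0.02 and -0.02.

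The NSL1 and double-target arrays of experiments D and E share their control arrays, and the 2 knockdowns were compared in the same fit. Of the 10 genes, 2 were called, where 26.5% of all probesets tested were. Mcm10 differed by -0.18 (SE 0.05, adjusted p = 0.0208), with -0.21 under NSL1 and -0.03 in the double-target cells. Cdt1 differed by -0.16 (SE 0.05, adjusted p = 0.0271), with -0.03 and 0.14. The Mcm10 difference was called in 10 of 15 alternative settings and the Cdt1 difference in 8 of 15, and both calls were lost when the NSL1 or double-target array of either experiment D or E was left out (adjusted p from 0.0757 to 0.134 for Mcm10 and from 0.110 to 0.206 for Cdt1). In the same comparison 2 of 5 fibroblast markers tested were called, Thy1 (-0.23) and Pdgfrb (-0.25), while the median of the 5 was 0.04. Of 5 trophectoderm markers tested, 1 was called, Krt8 (-0.59), and of 5 primitive endoderm markers tested, 1 was called, Dab2 (0.50). Of 8 ES cell markers, 0 were called (limma). These counts stand against the same 26.5% of all probesets, and the part of the markers was not tested. Without the block the Cdt1 difference was -0.25 with an adjusted p of 0.0721.

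Mcm7 holds 3 microRNA genes, Mir106b, Mir93 and Mir25, which lie within an intron of the host gene and are read by probesets of their own. They were looked up after the values of Mcm7 were known. The mature arms that are best known are shown with the seed (bases 2 to 8) in capitals, because 2 of them share it. The sequences are from RefSeq (GRCm38.p6), and all 3 genes lie inside the span of Mcm7 (chr5:138164583-138172111), on the minus strand. The mature arms lie at chr5:138165787-138165807, chr5:138165574-138165596 and chr5:138165332-138165353, in the order given.
miR-106b-5p: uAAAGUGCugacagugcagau
miR-93-5p: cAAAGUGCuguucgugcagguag
miR-25-3p: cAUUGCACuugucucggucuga
The first and second share the seed AAAGUGC, the seed of a microRNA family expressed in ES cells, and miR-25-3p has the seed AUUGCAC. The annotation assigns the probesets to the microRNA genes, and whether they read the hairpin, the mature microRNA or unspliced Mcm7 RNA was not tested.

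After MOF RNAi in PGK12.1 the Mir106b probeset rose by 0.52 (SE 0.13, adjusted p = 0.00765) and the Mir93 probeset by 0.40 (SE 0.07, adjusted p = 0.00132), while Mcm7 stood at 0.08 (SE 0.05, adjusted p = 0.277). By experiment Mir106b stood at 0.59, 0.78 and 0.19, Mir93 at 0.28, 0.63 and 0.28, and Mcm7 at -0.02, 0.13 and 0.14. Mir25 stood at -0.01, 0.24 and 0.28 (fitted change 0.17, adjusted p = 0.0895). Experiments 1 and 2 had 2 rounds of RNAi and experiment 3 had a single round. Controls 1 and 2 had log2 values of 6.35 and 6.27 for Mir106b and 6.27 and 6.05 for Mir93, near the filter's limit of 6. Control 3 had 7.04 and 7.13. In E14 the Mir25 probeset rose by 0.38 (SE 0.08, adjusted p = 0.0162, 0.44 and 0.31 by experiment), a call lost without the block (adjusted p = 0.287). Mir93 (0.175, limma adjusted p = 0.253) and Mir106b (0.05, limma adjusted p = 0.897) were not called in E14. In WD44 all 3 hairpin probesets were above 0 in both experiments (Mir106b 0.41 and 0.15, Mir93 0.29 and 0.22, Mir25 0.17 and 0.30). None was called there, where 12.4% of all probesets tested were (limma adjusted p between 0.0720 and 0.237, and 2 of 3 at an unadjusted p under 0.05). After MSL1, NSL1 and double-target RNAi none of the 3 was called (limma, 0 of 3 also at an unadjusted p under 0.05 in each). The share of all probesets called was 0.184%, 39.8% and 6.44% there. Mir106b was listed at 6.48 in 5 of the 7 arrays of experiments A to C. Whether a hairpin probeset differed from Mcm7 was not tested.

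**Figure D4:**
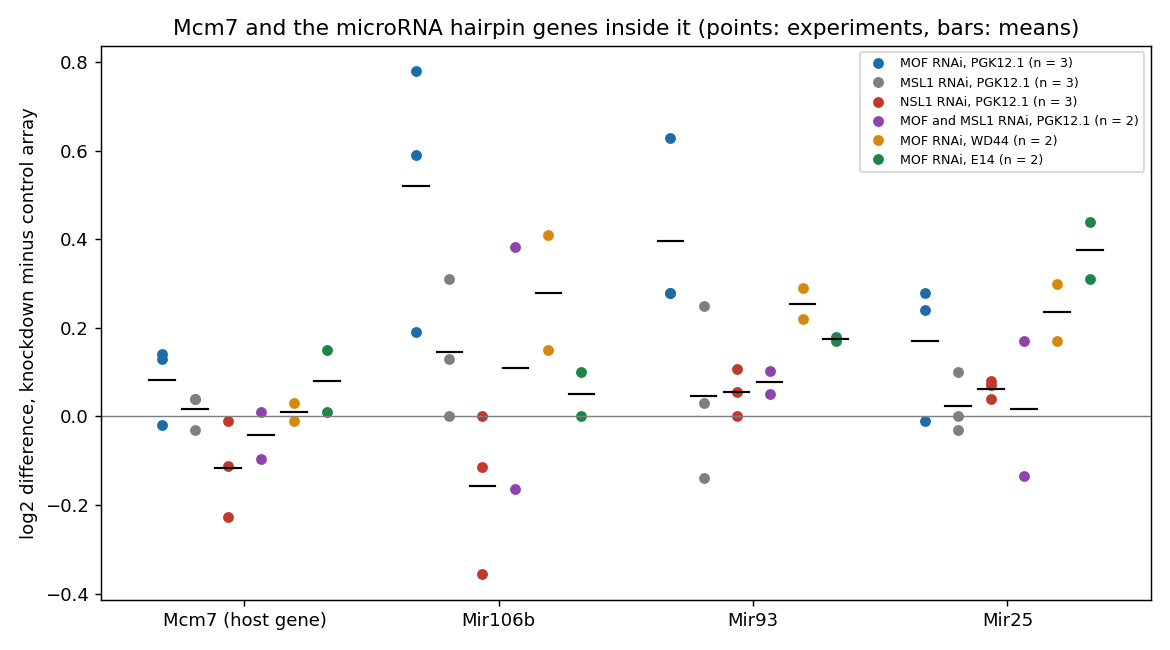
Log2 difference between knockdown and control array (vertical axis) for Mcm7 and the 3 microRNA hairpin probesets inside it (horizontal axis), with a point per experiment, a colour per knockdown and a bar at the mean of the points. After MOF RNAi in PGK12.1 the Mir106b points lie at 0.19 to 0.78 and the Mir93 points at 0.28 to 0.63, while those of Mcm7 lie at -0.02 to 0.14.

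The counts of the lists that follow stand against the share of all probesets called in the same comparison. That share was 23.4% after MOF RNAi in PGK12.1, 12.4% in WD44, 8.33% in E14 and 39.8% under the label NSL1. It was 0.184% after MSL1 RNAi and 6.44% in the double-target cells, so a count of 0 after MSL1 RNAi carries little information. None of these counts was tested against that share. Among genes of the origin recognition complex, MCM paralogues and genes of MCM-binding proteins, 2 of 10 fell and 0 rose after MOF RNAi in PGK12.1. They were Orc3, a subunit of the origin recognition complex (-0.41, adjusted p = 0.000112), and Mcm9, a paralogue that acts in repair (-0.20, adjusted p = 0.0196). In WD44 Orc3 (-0.26, adjusted p = 0.0218) and Mcm8, the partner of MCM9 (-0.40, adjusted p = 0.0100), fell, and in E14 0 of 10 were called (limma, 1 at an unadjusted p under 0.05). Under the label NSL1, 4 rose, among them Orc5 (0.30), Mcm3ap, which encodes an MCM3-binding protein (0.30), and Orc1 (0.20), and Orc3 fell by 0.29. After MSL1 and double-target RNAi 0 of 10 were called (limma, 0 and 3 at an unadjusted p under 0.05). The list medians were -0.04 in PGK12.1 and -0.08 in WD44 after MOF RNAi, against 0 and -0.02 over all probesets tested.

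Of 16 genes that turn the loaded ring into a helicase, 1 rose and 2 fell after MOF RNAi in PGK12.1, against 23.4% of all probesets called. Recql4, a helicase needed at initiation, rose by 0.15, and Mtbp, a partner of the firing factor TICRR (-0.30), and Gins3, a GINS subunit (-0.21), fell. In WD44, 4 of 16 fell and 0 rose, where 12.4% of all probesets were called and 7.98% were called lower, namely 3 of the GINS genes, among them Gins2 (-0.23) and Gins3 (-0.25), and Clspn, the checkpoint adaptor claspin (-0.23), and the list median was -0.15. In E14 0 of 16 were called (limma, 2 at an unadjusted p under 0.05) and the median was -0.03. The WD44 response differed from that of E14 in 1 of them, Gins2 (-0.38, adjusted p = 0.0279), and from that of PGK12.1 in Recql4 (-0.30, adjusted p = 0.0384). Under the label NSL1, where 39.8% of all probesets were called, 3 rose, namely Dbf4, the activator of the kinase CDC7 (0.24), Wdhd1 (0.17) and Ticrr (0.14), and 3 fell, namely Gins1 (-0.44), Timeless, a fork protection factor (-0.22), and Clspn (-0.16).

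Of 23 genes of the replication fork, 1 rose and 3 fell after MOF RNAi in PGK12.1, where 23.4% of all probesets were called. Pole, the catalytic subunit of DNA polymerase epsilon, rose by 0.18, and Prim2, the large primase subunit (-0.29), Pole2 (-0.25) and Pold3 (-0.17), accessory polymerase subunits, fell. In WD44 Pold2 (-0.26), Prim2 (-0.30) and Pole2 (-0.24) fell, 3 of 23 against 7.98% of all probesets called lower. In E14 the single-strand binding subunit Rpa2 rose by 0.30, 1 of 23 against 3.60% of all probesets called higher. Pole2 (-0.44, adjusted p = 0.0300) and Pold2 (-0.36, adjusted p = 0.0490) differed between WD44 and E14, and Pole2 between E14 and PGK12.1 (0.45, adjusted p = 0.0153). Under the label NSL1, 7 of 23 fell, against 21.4% of all probesets called lower, among them the clamp loader subunit Rfc2 (-0.40), Chaf1b of the histone chaperone CAF-1 (-0.27) and Prim2 (-0.26), and Pole rose by 0.12.

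Of 27 genes that control the licensing factors and the step from G1 to S, 5 rose and 4 fell after MOF RNAi in PGK12.1, against 23.4% of all probesets called. Rb1, which restrains E2F factors (0.54), Cdkn1b, a cyclin-dependent kinase inhibitor (0.38), and Fbxo5, an inhibitor of the ubiquitin ligase that degrades geminin (0.18), rose. E2f8, a repressor of E2F targets (-0.35), E2f4 (-0.19) and the cyclin Ccnd3 (-0.17) fell. In WD44 (12.4% of all probesets called), 3 fell, namely E2f8 (-0.31), E2f5 (-0.24) and Fbxo5 (-0.20), and in E14 (8.33%) 3 rose, namely the cell cycle kinases Cdk1 (0.26) and Cdk2 (0.24) and Ccnd3 (0.24). Taken as the other line minus PGK12.1, the response of Fbxo5 differed by -0.38 in WD44 (adjusted p = 0.0205) and by -0.32 in E14 (adjusted p = 0.0383), that of Cdkn1b by -0.40 in WD44, that of Rb1 by -0.74 in E14 and that of Ccnd3 by 0.41 in E14. Under the label NSL1 (39.8%), 6 rose, among them Rb1 (0.92), Rbl2, a relative of Rb1 (0.38), and Cdkn1b (0.28), and 2 fell, namely Cul4a, a scaffold of the ligase that degrades CDT1 (-0.35), and the cyclin Ccne1 (-0.27). After MSL1 and double-target RNAi 0 genes of this list, of the 16 and of the 23 were called (limma, background 0.184% and 6.44%). At an unadjusted p under 0.05 there were 3, 3 and 1 after MSL1 RNAi and 5, 3 and 4 in the double-target cells.

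Of 11 mitosis genes tested, 0 were called after MOF RNAi in PGK12.1, after MSL1 RNAi and in the double-target cells (limma, 2, 1 and 0 at an unadjusted p under 0.05). The share of all probesets called was 23.4%, 0.184% and 6.44% in these comparisons. In WD44 (12.4%) the kinesin gene Cenpe (-0.30) and the checkpoint kinase gene Bub1 (-0.25) fell, and in E14 (8.33%) Cenpe fell by 0.23. Under the label NSL1 (39.8%) Cdc20, an activator of the anaphase ligase, fell by 0.19. Many of these calls depended on the block or on single experiments. Over the named pathway, target and hairpin results, 45 of 94 stayed called without the block, and in WD44 at most 3 of 20 did when an array was left out.

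The members did not all vary together across the 15 knockdown-minus-control differences. These differences share control arrays in experiments C, D and E, and the correlations are descriptions. Against the mean of Mcm2 to Mcm7, Pearson's r was 0.87 for Cdt1, 0.71 for Mcm10, 0.48 for Cdc6 and -0.11 for Gmnn. Against the mean of the other 5 subunits it was 0.83 for Mcm3, 0.55 for Mcm5 and 0.51 for Mcm2, and lower for Mcm7 (0.28), Mcm4 (0.16) and Mcm6 (0.01). The 5 genes outside the group most like the mean of Mcm2 to Mcm7 were Psma5, a proteasome subunit (0.93), Jund, a subunit of the AP-1 factors (0.91), Vps11, of vesicle tethering complexes (0.90), Taf8, a subunit of the general factor TFIID (0.90), and Sephs1 (0.89). That mean itself ran from -0.17 in WD44 experiment 1 to 0.06 in E14 experiment 1, so both ends came from the first experiment of a male line.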

How the data were processed

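The data were the authors' deposited table of log2 expression, with a column for each of 27 arrays. Per the submitters' processing notes they came from Affymetrix Expression Console with RMA, a method of background correction, quantile normalization and probe summary. Software versions are not given in the sources used here, nor is a genome build. Probesets were named through the platform annotation, updated by gene identifier through RefSeq (GRCm38.p6), and the 16283 with a symbol and a log2 value averaging 6 or more were tested.

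limma 3.58.1 (R 4.3.3) fitted all arrays together, with a term for each of the 12 experiments (the block) and for 6 knockdown effects (9 residual degrees of freedom), and Benjamini-Hochberg adjustment over all probesets tested. The pairing of knockdown and control arrays comes from the experiment numbers and letters in the labels. The labels say no more of the cultures, so p-values measure the spread between these arrays, which may be technical. Deviations from group means correlated between paired arrays at -0.10 (double-target, experiment E) to 0.87 (MOF, experiment 3). The correlation was 0.011 in WD44 and 0.13 in E14, so the pairing has little support from the data in those lines and rests on the labels. It was 0.33, -0.05 and 0.36 for MSL1 and 0.26 and -0.10 for the double target. The PGK12.1 MOF and NSL1 arrays (0.55 to 0.87) come from different sets of arrays. There the pairing cannot be told apart from steps between sets, and it rests on the labels too. A control shared by 2 knockdowns informs both, so fitted changes can differ slightly from the mean of the differences. With a single spread per probeset over all arrays, p-values for WD44 and E14 draw mostly on PGK12.1 arrays. The number of arrays limits the precision, and Pearson's r between replicates was 0.981 to 0.996. No arrays held identical values. The fit was tested on simulated data.

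Named genes were the 10 members, the targeted genes, up to 3 called genes each way with the smallest p from each pathway list, and the 5 genes most like the mean of Mcm2 to Mcm7, besides marker genes. The microRNA genes inside Mcm7 were added after values were seen. The members, lists and tests were chosen with earlier results of these data known. Alternatives were a fit without the block, no filter, median-centred arrays, cyclic loess, array weights, a trended variance prior, only the arrays of a comparison, PGK12.1 experiments by number of RNAi rounds, and leaving out each array.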

Additional observations from a re-analysis of the deposited data

Results flagged for a closer look

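The Mcm2 value of control D (12.06, 12.0624 as deposited) lay apart from the other 4 PGK12.1 controls of the MSL1 and NSL1 experiments. Its gap to the nearest control was 0.725 of the group's range, above Dixon's critical value of 0.71 for 5 samples. The Mcm3 value of control C (11.61) lay apart in the same group, at 0.855 of the range. Of the 10 genes tested in this way, 2 were thus marked, in a test that marks about 1 in 20 groups by chance. The 5 controls come from 2 sets of arrays, and experiments C and D enter the NSL1 comparison. Without control D the NSL1 change of Mcm2 was -0.15 (adjusted p = 0.0552).

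The response of Cdt1 to MOF RNAi differed between WD44 and E14 by -0.325 (limma adjusted p = 0.0490).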

How the results depend on the processing

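No called member changed sign in any alternative. Of the 10 members, the count called was 0 after MOF RNAi in PGK12.1 and after MSL1 RNAi in every alternative, and 0 between either male line and PGK12.1. Without the replicate block the count fell from 1 to 0 in WD44, in E14 and between WD44 and E14, rose from 0 to 1 in the double-target cells and fell from 2 to 1 for NSL1 against the double target. With only the arrays of the comparison it fell to 0 in WD44, in E14 and between them, and to 1 for NSL1 and for NSL1 against the double target. Without the filter it was 1 for NSL1, 0 between WD44 and E14 and 0 for NSL1 against the double target. With cyclic loess it was 1 for NSL1 and 0 between WD44 and E14, with array weights 4 for NSL1, with centred arrays 2 in WD44, and with a trended prior 2 in WD44 and 3 between WD44 and E14. Leaving out each array gave 1 to 2 for NSL1, 0 to 1 in WD44, in E14 and between them, 0 to 2 for NSL1 against the double target, and 0 elsewhere. Where this left 1 pair, that pair was assumed to vary like the other experiments.

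The median change of Mcm2 to Mcm7 was -0.07 after MOF RNAi in PGK12.1, -0.10 for NSL1, -0.0332 in the double-target cells and 0.12 between E14 and PGK12.1 with centred arrays. Without the block it was -0.10 for NSL1 and -0.0293 in the double-target cells, where it was -0.0146 with cyclic loess, -0.000800 with array weights and -0.0272 with only the arrays of the comparison. Leaving out each array gave -0.0305 to -0.00155 in the double-target cells, -0.185 to -0.055 in WD44, 0.03 to 0.075 in E14, -0.03 to -0.02 in PGK12.1 after MOF RNAi, -0.08 to -0.07 for NSL1 and -0.101 to -0.0725 for NSL1 against the double target. The cause of these shifts was not tested. Of 94 named pathway, target and hairpin results, 0 changed sign in any alternative, and 45 stayed called without the block and 44 with only the arrays of the comparison. The 95% confidence intervals of the members in WD44 and E14 reach 0.11 to 0.18 on either side of the estimate.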
